A study of Mus musculus with 6 samples.

Results

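Embigin, basigin and the monocarboxylate transporters that they accompany were followed in cultured mouse embryonic fibroblasts, the adherent cells that grow out of dissociated embryos. The listed genes were Emb (embigin), Bsg (basigin), Slc16a1 (MCT1), Slc16a3 (MCT4) and Slc16a7 (MCT2), taken by symbol. Of these 5 genes, 4 had a row among the 23842 genes of the count table, and all 4 passed the filter on low counts that left 15039 tested genes. Slc16a7 was not analysed here. Total RNA was sequenced from 3 libraries labelled NGLY1-/- and 3 labelled wild type (WT), all of strain C57BL/6, grown without treatment in high-glucose medium with 10% serum. The series compared both genotypes to find genes whose expression differs when NGLY1, the cytosolic enzyme that removes N-linked glycans from misfolded glycoproteins, is missing. No label tells which part of Ngly1 was removed, whether the deletion was germline, or how many embryos or dishes stand behind a group, so the spread between libraries may be technical.

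Monocarboxylate transporters of the SLC16 family carry lactate, pyruvate and ketone bodies across the plasma membrane together with a proton. MCT1 and MCT4 reach the cell surface only when bound to an immunoglobulin-superfamily glycoprotein with a single membrane span, usually basigin (CD147), while MCT2 prefers embigin. MCT1 works in both directions and is widely expressed. MCT4 is known for lactate export from glycolytic cells. Embigin is best known from early embryos, blood progenitors and muscle, and is scarce in most adult tissues.

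The genes were chosen by the counts of Emb, which was nearly absent from wild-type fibroblasts, so its values describe the data and carry no test. The other members were listed for their function and were tested in the same fit as all genes. In that fit 60.9% of all tested genes passed a false discovery rate of 5%, 30.7% as higher and 30.2% as lower in NGLY1-/- libraries. Of the 3 members other than Emb, 1 was higher (Slc16a1), 1 was lower (Bsg) and 1 did not pass (Slc16a3), a share that no more than matches this background. Total counts ran from 33007239 to 37841558 in NGLY1-/- libraries and from 27323577 to 37790710 in WT libraries, and ribosomal RNA took 0.215% to 5.25% and 1.55% to 3.95% of them. Ngly1 itself had 618, 420 and 457 counts in NGLY1-/- libraries against 668, 632 and 307 in WT libraries (log2 fold change 0.00, adjusted p = 0.99), so a count over the whole gene does not check the genotype label.

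Emb (gene ID 13723) spans 117220573 to 117274415 on the plus strand of chromosome 13, build GRCm38. Its counts were 647, 531 and 610 in NGLY1-/- libraries, against 1, 0 and 0 in WT libraries. Scaled to library size (CPM) these were 19.1, 16.2 and 17.2 in NGLY1-/- libraries, against 0.0246 CPM in the WT library with a count. The groups lay far apart, and the NGLY1-/- libraries were close to each other (17.5 ± 1.47 CPM, SD, n = 3). In the WT libraries with 0 counts, counting error alone allows up to 0.077 and 0.11 CPM (3 counts). Without WT replicate 1, which held the single count, the other WT libraries hold 0 counts, and with 3 counts over both as their limit the NGLY1-/- level was at least 386-fold higher. Of all tested genes, 1 (Emb) had at most 1 count over the WT libraries and at least 1000 over the NGLY1-/- libraries, and 1 (Hand2, chosen after its values were seen) had the reverse. These limits lie close to the counts of Emb itself, so standing alone past them is no result. Genes just outside them, such as Kctd15 and H2-Q6, are described below. In bulk RNA a gene read by fewer cells and a gene with less RNA in each cell cannot be told apart. A pseudogene, Gm35144, lies inside Emb (117229355 to 117230117) and had 12 counts over NGLY1-/- libraries and 21 over WT libraries. Reads were thus assigned to it in both genotypes. How reads were assigned is not given, so these low counts do not show where the reads came from.

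**Figure D1:**
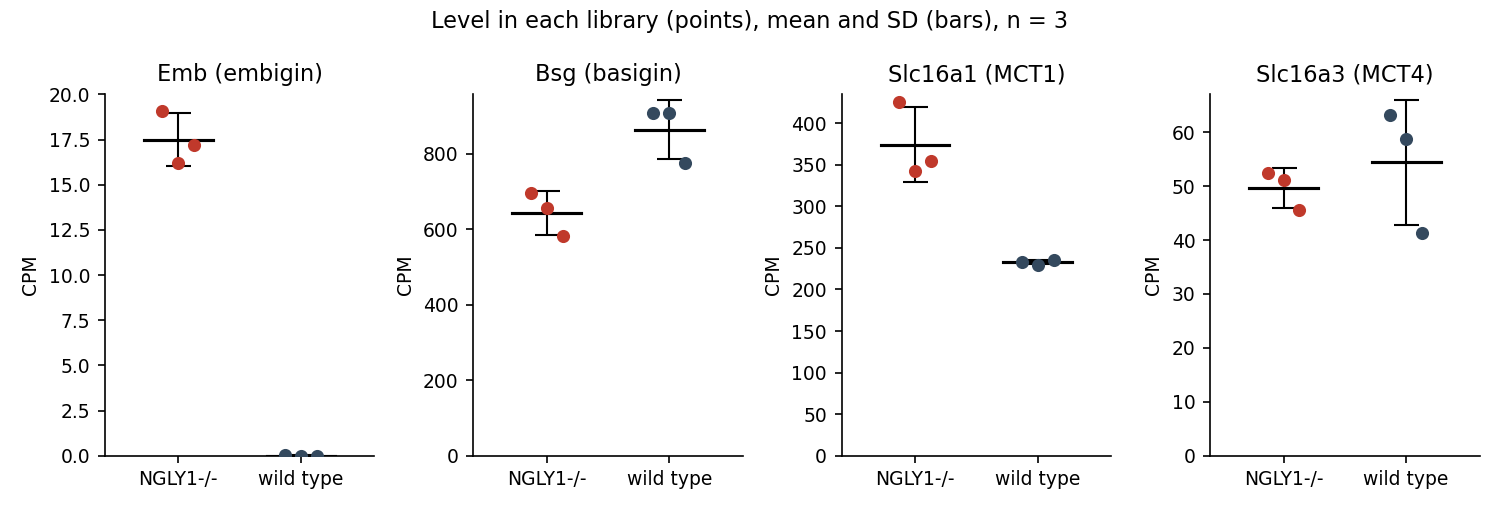
Level of the 4 members in each library, in CPM on linear axes from 0; each point is a library, the horizontal line the mean and the bar the SD (n = 3). Emb is at 16.2 to 19.1 CPM in NGLY1-/- libraries and at or near 0 in WT libraries, Bsg is lower and Slc16a1 higher in NGLY1-/- libraries without overlap, and the groups overlap for Slc16a3.

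Bsg encodes basigin, the usual partner of MCT1 and MCT4. It lies on chromosome 10 (79704358 to 79711979, gene ID 12215) and had 696, 655 and 581 CPM in NGLY1-/- libraries, against 909, 908 and 774 CPM in WT libraries. All NGLY1-/- libraries were below all WT libraries. The mean was 644 ± 58.3 CPM in NGLY1-/- libraries and 864 ± 77.7 CPM in WT libraries (SD, n = 3 each), which was 1.34-fold lower (log2 fold change -0.42, SE 0.11, adjusted p = 0.00794). Basigin RNA thus fell by a small amount and remained abundant: per kilobase of exon it ranked 63 of 12333 tested protein-coding genes in NGLY1-/- libraries and 33 in WT libraries.

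Slc16a1, the gene of MCT1, lies on chromosome 3 (104638664 to 104658462, gene ID 20501). It had 426, 343 and 354 CPM in NGLY1-/- libraries, against 233, 230 and 235 CPM in WT libraries. Every NGLY1-/- library was above every WT library, and the WT libraries were nearly equal. The mean of 375 ± 45.2 CPM in NGLY1-/- libraries was 1.61-fold that of 233 ± 2.71 CPM in WT libraries (SD, n = 3 each; log2 fold change 0.69, SE 0.1, adjusted p = 0.000286).

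Slc16a3, the gene of MCT4, lies on chromosome 11 (120948484 to 120959000, gene ID 80879). It had 52.5, 51.1 and 45.5 CPM in NGLY1-/- libraries, against 63.2, 58.7 and 41.3 CPM in WT libraries. The groups overlapped because WT replicate 3 was the lowest of all 6 libraries. The log2 fold change was -0.13 (95% interval -0.47 to 0.21, adjusted p = 0.47). Without WT replicate 3 it was -0.28 and passed (adjusted p = 0.0213). The end of Slc16a3 overlaps Csnk1d, a casein kinase gene with 12283 counts over NGLY1-/- libraries and 15518 over WT libraries, and without a stated strand setting reads there could have gone to either gene.

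Upstream sequence is shown for both transporter genes because MCT1 is a known target of the transcription factor MYC, which binds the E-box CACGTG. MCT4 is a known target of hypoxia-inducible factor, whose sites hold ACGTG or GCGTG. Whether these factors bear on the level of either gene here was not tested. The letters are from RefSeq on GRCm38.p6, plus strand, chr3:104638414-104638663 for Slc16a1 and chr11:120948817-120949052 for Slc16a3, each before an annotated start, which for Slc16a3 lies inside the gene span given above because a farther start is also annotated. Capitals mark the E-box and both cores of the hypoxia-inducible factor sites, on either strand, and the E-box itself holds the first of these cores on both strands.
Slc16a1: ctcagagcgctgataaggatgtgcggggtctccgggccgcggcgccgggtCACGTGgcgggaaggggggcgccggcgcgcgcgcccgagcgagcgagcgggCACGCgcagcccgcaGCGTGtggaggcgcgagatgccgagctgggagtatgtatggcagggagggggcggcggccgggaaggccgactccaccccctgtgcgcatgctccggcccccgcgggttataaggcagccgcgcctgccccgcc
Slc16a3: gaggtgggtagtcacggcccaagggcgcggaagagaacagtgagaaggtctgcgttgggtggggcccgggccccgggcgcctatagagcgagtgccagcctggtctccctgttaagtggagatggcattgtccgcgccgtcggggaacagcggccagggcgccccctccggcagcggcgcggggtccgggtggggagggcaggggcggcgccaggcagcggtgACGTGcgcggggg
The Slc16a1 window held 1 E-box and 2 GCGTG cores, and the stretch printed for Slc16a3, which stops before an annotated exon, held 1 ACGTG core. The full 250-base window of Slc16a3 held 2 ACGTG cores. Among 32851 RefSeq windows of 250 bases before a start, 6.02% held CACGTG, 16.6% ACGTG and 28.2% GCGTG. The 250-base window of Emb held none of these letters. It also held no TATAAA, which 12.4% of windows held. CpG dinucleotides numbered 6 in the Emb window, as in the median window, against 37 for Slc16a1 and 29 for Slc16a3. The letters of the Emb window are not printed, since a GENCODE transcript places its first exon there.

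Levels of different genes were compared as CPM per kilobase of exon. In NGLY1-/- libraries the order was Bsg (355 ± 32.1), Slc16a1 (84.6 ± 10.2), Slc16a3 (9.35 ± 0.7) and Emb (2.53 ± 0.213), and in WT libraries Bsg (476 ± 42.8), Slc16a1 (52.5 ± 0.611), Slc16a3 (10.2 ± 2.17) and Emb (0.00119 ± 0.00205; SD, n = 3 each). Neighbours in each order were separated by more than their spread. Even where it was present, embigin RNA was therefore scarce beside basigin RNA. It made up 0.715%, 0.645% and 0.772% of the sum of both in NGLY1-/- libraries, against 0.00071%, 0% and 0% in WT libraries.

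Ratios taken within a library do not depend on how libraries are scaled. The Slc16a1 level was 9.76, 8.07 and 9.35 times that of Slc16a3 per kilobase in NGLY1-/- libraries, against 4.44, 4.7 and 6.83 times in WT libraries. Basigin was 3.61, 4.14 and 3.62 times the sum of both transporters in NGLY1-/- libraries, against 7.76, 7.96 and 7.02 times in WT libraries. Adding embigin to basigin left these ratios at 3.64, 4.17 and 3.65 in NGLY1-/- libraries and at 7.76, 7.96 and 7.02 in WT libraries. Basigin over neuroplastin (Nptn), the closest relative of basigin, was 17.8, 18.1 and 15.9 in NGLY1-/- libraries and 14.5, 14.5 and 14.6 in WT libraries. The groups did not overlap for these ratios, as for 67.3% of all tested genes. The 3 ratios without Emb each had p = 0.1 in a two-sided exact permutation test on the log scale, also after adjustment over the 3, which is the smallest p that 3 libraries against 3 can give.

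**Figure D2:**
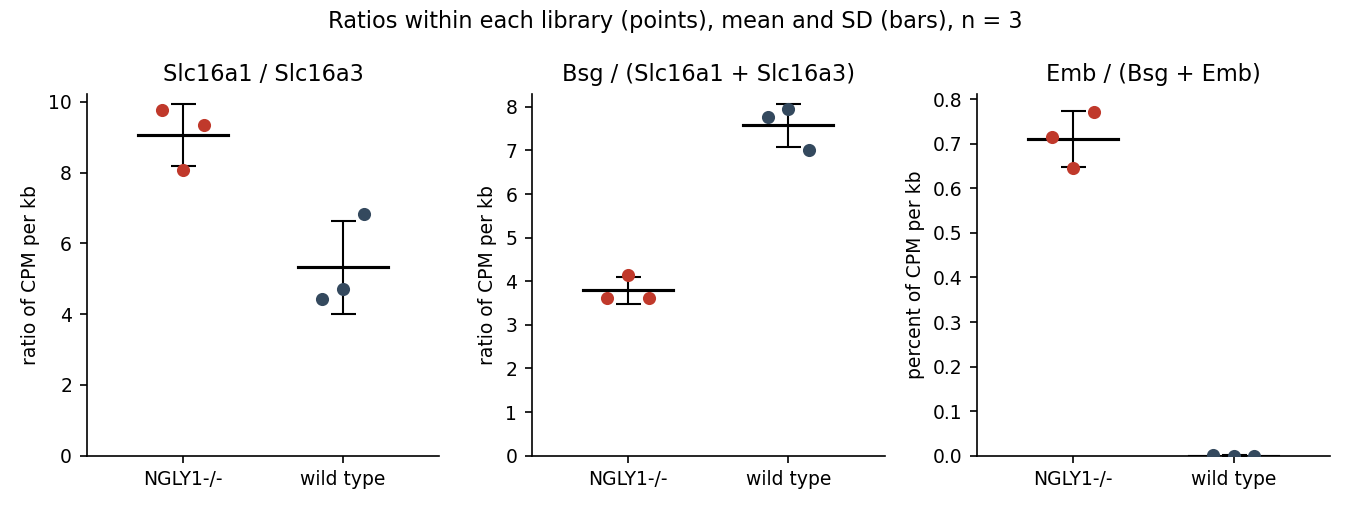
Ratios within each library, from CPM per kilobase of exon; points are libraries, lines means and bars SD (n = 3). Slc16a1 over Slc16a3 is 8.07 to 9.76 in NGLY1-/- libraries and 4.44 to 6.83 in WT libraries, Bsg over both transporters is 3.61 to 4.14 and 7.02 to 7.96, and the share of Emb stays below 1% of the sum with Bsg in every library.

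Of 8 other SLC16 genes in the table, 4 passed the filter on low counts. Of these 4, 3 were higher in NGLY1-/- libraries and 0 lower, beside 30.7% higher and 30.2% lower among all tested genes. Slc16a13 and Slc16a6 passed the filter only through the NGLY1-/- libraries, so they had to differ. These counts are therefore not read as a result about the family. Slc16a10, an aromatic amino acid transporter (TAT1), had 53.4, 49.8 and 52.4 CPM in NGLY1-/- libraries, against 22.9, 20.8 and 24.4 CPM in WT libraries (2.29-fold, adjusted p = 6.66e-06). Slc16a13, a transporter studied in liver, had 99, 100 and 114 counts in NGLY1-/- libraries, against 1, 2 and 1 in WT libraries. After scaling this was 81.9 times as many (95% counting limits 31.7 and 302). Slc16a6, which exports ketone bodies in zebrafish liver, had 70, 73 and 50 counts in NGLY1-/- libraries, against 5, 1 and 1 in WT libraries. After scaling this was 28.9 times as many (95% counting limits 13.7 and 72.7). Both were therefore low genes that came close to absent in wild type, at 3.06 ± 0.148 CPM for Slc16a13 and 1.9 ± 0.432 CPM for Slc16a6 in NGLY1-/- libraries (SD, n = 3). Without WT replicate 1 the log2 fold change of Slc16a6 moved to 5.81, against 4.8 with it, and the gene overlaps Arsg, whose counts were 103 over NGLY1-/- libraries and 189 over WT libraries. Slc16a9 and Slc16a14, too low to be tested, had 14 and 11 counts over NGLY1-/- libraries and 0 in each WT library, while Slc16a4 had 24 over NGLY1-/- libraries and 14 over WT libraries, and Slc16a12 had 1 and 4.

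Transport across the inner mitochondrial membrane was read from Mpc1 and Mpc2, subunits of the pyruvate carrier. Listed with them was Slc5a8, a sodium-coupled monocarboxylate transporter gene, which is not part of that carrier. Of these 3 tested genes, 1 was higher and 0 lower, beside 30.7% higher and 30.2% lower among all tested genes. The counts turned to 0 higher and 1 lower when libraries were scaled by their totals only. Mpc2 had 27.4, 26.7 and 20.3 CPM in NGLY1-/- libraries, against 17.5, 18 and 18.2 CPM in WT libraries (1.39-fold, adjusted p = 0.0112, and 0.0532 with library totals). Mpc1 had 9.99 ± 0.668 CPM in NGLY1-/- libraries and 12.3 ± 1.6 CPM in WT libraries (SD, n = 3 each; adjusted p = 0.103, and 0.0343 with library totals). Slc5a8 was at 0.476 ± 0.305 CPM in NGLY1-/- libraries and 0.297 ± 0.0689 CPM in WT libraries (SD, n = 3 each) and did not pass (adjusted p = 0.339).

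Of 21 tested genes of enzymes that make and use the carried acids, 4 were higher, 11 were lower and 6 did not pass, beside 30.7% higher and 30.2% lower among all tested genes. The median log2 fold change was -0.36, against -0.04 over all tested genes, and the list itself was not tested. Pkm, the pyruvate kinase gene, had 1350, 1240 and 1120 CPM in NGLY1-/- libraries, against 3070, 3310 and 3030 CPM in WT libraries (2.54-fold lower, adjusted p = 8.06e-06). Ldha, which encodes the lactate dehydrogenase subunit that favours lactate formation, had 592, 596 and 543 CPM in NGLY1-/- libraries, against 1030, 1060 and 956 CPM in WT libraries (1.76-fold lower, adjusted p = 6.31e-05). The RNA of the main lactate-forming enzyme thus fell while that of MCT1 rose. Ldhb, the other main subunit gene, was at 1.24 ± 0.0978 CPM in NGLY1-/- libraries and 0.674 ± 0.394 CPM in WT libraries (SD, n = 3 each) and did not pass (adjusted p = 0.105, and 0.0204 without WT replicate 2). The D-lactate dehydrogenase gene Ldhd had 0, 1 and 0 counts in NGLY1-/- libraries, against 20, 13 and 14 in WT libraries.

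Regulators of pyruvate dehydrogenase, the enzyme through which pyruvate enters the mitochondrial cycle, went in both directions. Among the kinases that switch it off, Pdk1 had 52.3, 54.4 and 37.1 CPM in NGLY1-/- libraries, against 152, 136 and 94.8 CPM in WT libraries (2.67-fold lower, adjusted p = 0.000275). Pdk4 had 170, 181 and 204 counts in NGLY1-/- libraries, against 19, 2 and 0 in WT libraries. Its log2 fold change was 4.81, and 7.33 without WT replicate 1, which held most of the WT counts. Pdk4 passed the low-count filter mainly through the NGLY1-/- libraries, so it is given without p. Of the phosphatases that switch it on, Pdp1 was 2.67-fold higher (adjusted p = 2.68e-05) and Pdp2 1.95-fold lower (adjusted p = 5.56e-05). Bdh1, a ketone body dehydrogenase gene, had 0.178 ± 0.0816 CPM in NGLY1-/- libraries and 1.42 ± 0.105 CPM in WT libraries (SD, n = 3 each), 7.89-fold lower. Bdh1 passed the low-count filter only through the WT libraries, so it is also given without p.

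Of 17 tested partners and ligands of basigin, 5 were higher and 10 lower (3 higher without NGLY1-/- replicate 1), beside 30.7% higher and 30.2% lower among all tested genes. The median log2 fold change was -0.35, against -0.04 over all tested genes, and this list was not tested either. Nptn, the third member of the basigin group beside Emb and Bsg, had 133, 123 and 124 CPM in NGLY1-/- libraries, against 213, 213 and 180 CPM in WT libraries (1.59-fold lower, adjusted p = 0.000223). Ppia, the gene of cyclophilin A, a secreted ligand of basigin, was at 570 ± 72.7 CPM in NGLY1-/- libraries and 805 ± 39.0 CPM in WT libraries (SD, n = 3 each; 1.41-fold lower, adjusted p = 0.00345). The amino acid transporter pair found in complexes with basigin was higher. Slc3a2 (CD98 heavy chain) had 443, 462 and 540 CPM in NGLY1-/- libraries, against 154, 148 and 178 CPM in WT libraries (3.01-fold, adjusted p = 2.17e-06), and Slc7a5 (LAT1) was 2.34-fold higher (adjusted p = 0.00015). Basigin is also known as an inducer of matrix metalloproteinases. Mmp2 was 13.7-fold higher (adjusted p = 1.45e-07), Mmp3 was 10.7-fold lower (adjusted p = 0.000882), and Mmp14 did not pass (adjusted p = 0.0627). Cav1 (caveolin) and Itga3 (an integrin subunit), both partners of basigin at the membrane, were 2.57-fold and 2.79-fold lower (adjusted p = 3.75e-05 and 0.000164).

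Protons exported with lactate are handled by acid extruders and bicarbonate transporters. Of 8 tested genes of acid extrusion 2 were higher and 2 lower (4 higher without WT replicate 1), beside 30.7% higher and 30.2% lower among all tested genes. Slc4a7, a sodium bicarbonate cotransporter gene, had 274, 175 and 202 CPM in NGLY1-/- libraries, against 105, 101 and 118 CPM in WT libraries (2.01-fold higher, adjusted p = 0.000388). The low genes Slc4a4 and Slc4a8, also bicarbonate transporters, were at 1.74 and 0.0581 CPM in NGLY1-/- libraries, against 0.362 and 1.31 CPM in WT libraries. Slc4a4 passed the low-count filter mainly through the NGLY1-/- libraries and Slc4a8 only through the WT libraries, so both are given without p. The log2 fold change of Slc4a8 moved to -5.32 without NGLY1-/- replicate 1, against -4.4 with it. Car9, a carbonic anhydrase gene induced by hypoxia, did not pass (log2 fold change 1.08, adjusted p = 0.0636), and passed without WT replicate 1 (adjusted p = 0.0371) and without NGLY1-/- replicate 3 (adjusted p = 0.0499).

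Of 16 tested regulators of the transporter genes, 6 were higher and 6 lower, beside 30.7% higher and 30.2% lower among all tested genes. No link from a regulator to a transporter gene was tested. Myc had 234, 216 and 362 CPM in NGLY1-/- libraries, against 13.8, 17.7 and 54.8 CPM in WT libraries (9.48-fold, adjusted p = 0.00424). Replicate 3 was the highest of its group in both genotypes, and without WT replicate 3 the log2 fold change of Myc was 4.12, against 3.24 with it. Max, the DNA-binding partner of MYC, was 1.48-fold higher (adjusted p = 0.00189). Hif1a, the oxygen-regulated subunit gene of hypoxia-inducible factor, was at 350 ± 42.6 CPM in NGLY1-/- libraries and 259 ± 26.3 CPM in WT libraries (SD, n = 3 each; 1.35-fold, adjusted p = 0.00898), although its activity is mainly set at the protein level. Egln1 and Egln3, the prolyl hydroxylase genes that mark this subunit for destruction and are themselves induced by it, were 2.03-fold and 2.99-fold lower (adjusted p = 8.67e-06 and 0.000149). The coactivator gene Ppargc1b and the nuclear receptor gene Esrra, both tied to mitochondrial metabolism, were 2.83-fold and 1.92-fold higher (adjusted p = 2.77e-05 and 0.00049). Epas1, the other main hypoxia-inducible subunit gene, was at 0.198 CPM in NGLY1-/- libraries and 0.967 CPM in WT libraries. Epas1 passed the low-count filter mainly through the WT libraries, so it is given without p.

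**Figure D3:**
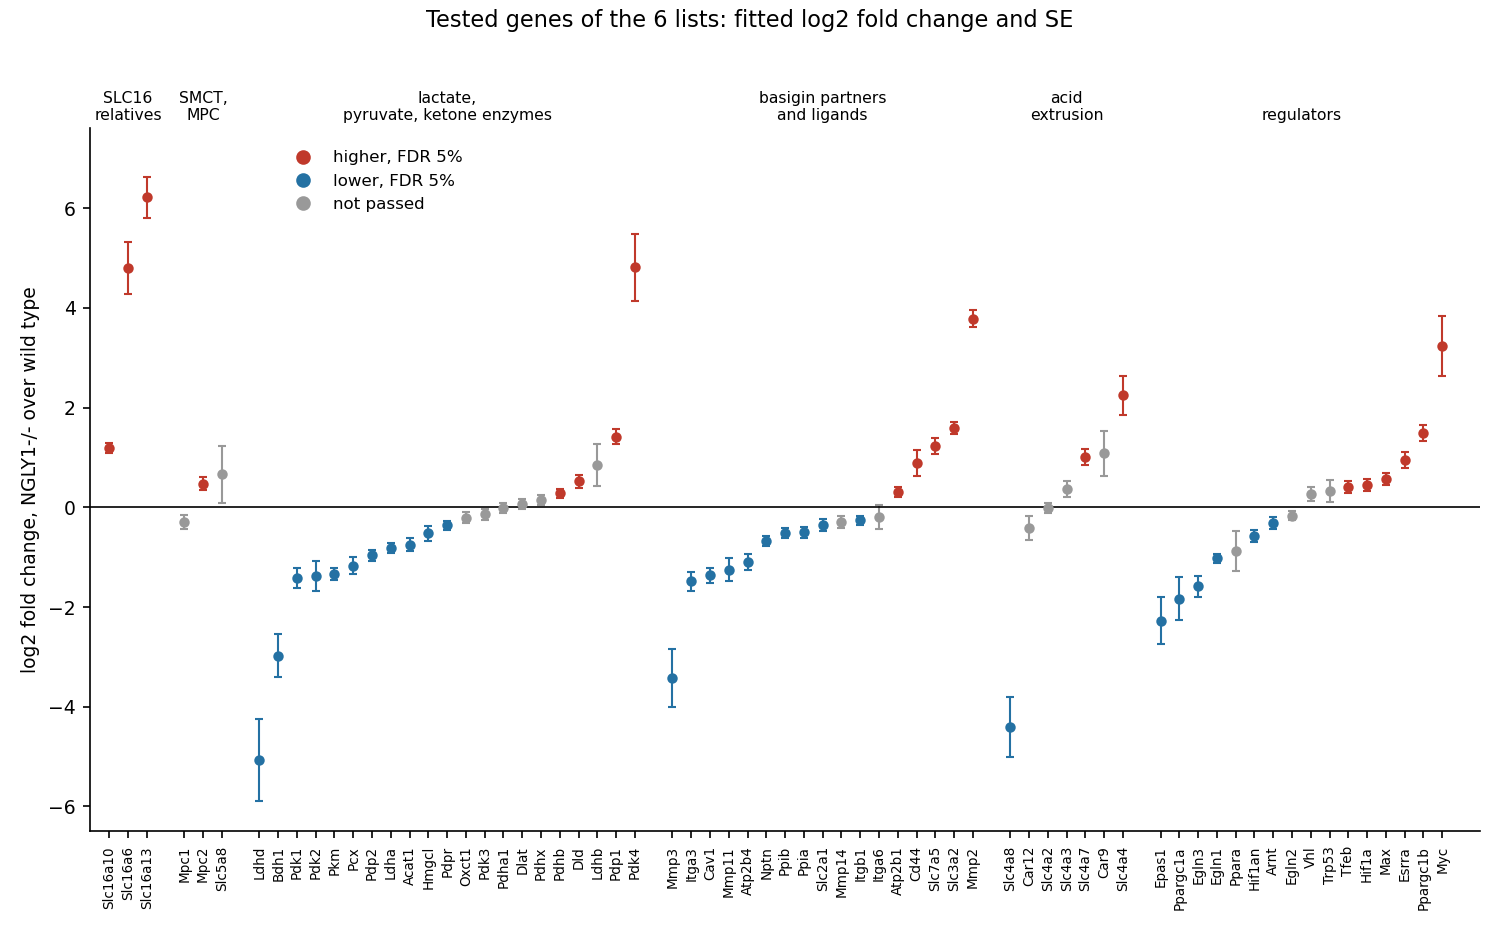
Fitted log2 fold change (NGLY1-/- over wild type) with its SE for tested genes of the 6 lists, sorted within each list; red, blue and grey mark higher, lower and not passed at a false discovery rate of 5%. The 3 SLC16 relatives drawn are higher, of the lactate, pyruvate and ketone body enzymes 11 of 21 are lower, and the regulators split into 6 and 6.

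The genes beside Emb on chromosome 13 were also counted. Parp8, whose product transfers ADP-ribose and whose gene ends 194.6 kb before Emb, had 72.9, 57.4 and 64.2 CPM in NGLY1-/- libraries, against 21.4, 19.5 and 19.9 CPM in WT libraries (3.19-fold, adjusted p = 1.48e-06). The pseudogene Gm6421, which starts 73.3 kb after Emb, had 45, 43 and 35 counts in NGLY1-/- libraries and 47, 46 and 37 in WT libraries (adjusted p = 0.951). Farther out, Pelo was 2.27-fold higher (adjusted p = 0.000178) and Mrps30 1.48-fold higher (adjusted p = 0.00204), while Itga1 did not pass (adjusted p = 0.268, and 0.00673 without WT replicate 3, when it was lower). Genes of chromosome 13 had a median log2 fold change of 0.43 (quartiles -0.08 and 0.94). Of 625 tested, 325 were higher and 87 lower, beside 30.7% higher and 30.2% lower among all tested genes. The medians were -0.11 on chromosome 10 (Bsg), -0.16 on chromosome 3 (Slc16a1) and -0.02 on chromosome 11 (Slc16a3). Whether these chromosome medians bear on the members' values was not tested.

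**Figure D4:**
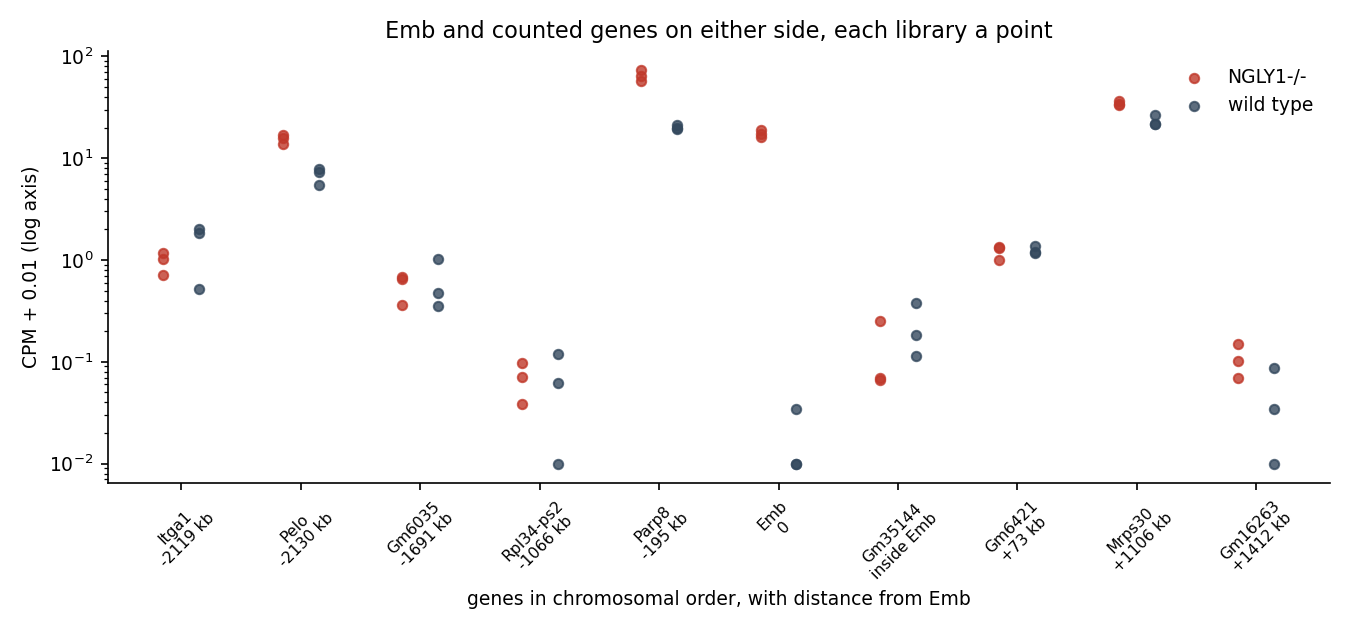
CPM plus 0.01 on a log axis for Emb and counted genes on either side, in order of their starts, with the distance from Emb under each name; each point is a library. Parp8 and Emb are higher in all NGLY1-/- libraries than in any WT library, whereas the groups overlap for the pseudogenes Gm35144 and Gm6421.

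The genes whose profile over the 6 libraries was nearest to that of Emb, by Euclidean distance in log2 CPM with a prior count of 2, were H2-Q6 (distance 1.63), Zyg11a (1.66), Kctd15 (1.83), Gjb2 (2.11) and Tgtp1 (2.16). H2-Q6 is an MHC class I gene with near-identical copies, so its reads are uncertain, and it had 343, 384 and 417 counts in NGLY1-/- libraries, against 3, 2 and 0 in WT libraries. Kctd15 had 261, 312 and 347 counts in NGLY1-/- libraries, against 2, 1 and 0 in WT libraries. Zyg11a had 568, 513 and 557 counts in NGLY1-/- libraries, against 7, 0 and 1 in WT libraries. All 5 lie on chromosomes other than 13.

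Markers of other cell types were read because embigin is known from blood cells and muscle. The counts below stand beside 30.7% higher and 30.2% lower among all tested genes, whose median log2 fold change was -0.04. Of 10 tested fibroblast markers 2 were higher, 6 lower and 2 did not pass, with a median log2 fold change of -0.58. Lower were S100a4 (133 CPM in NGLY1-/- and 1010 CPM in WT libraries, adjusted p = 7.97e-08), Vim (677 and 1740 CPM, adjusted p = 1.01e-05), Thy1 (1.25 and 3.9 CPM, adjusted p = 0.000326), Pdgfrb, Pdgfra and Col1a2. Higher were Fn1 (7150 and 2090 CPM, adjusted p = 3.3e-06) and Dcn (15.7 and 3.36 CPM, adjusted p = 0.000106), while Col1a1 did not pass (1120 and 1180 CPM, adjusted p = 0.557). Through Fn1 the list summed to 10600 to 11800 CPM in NGLY1-/- libraries, against 8210 to 9210 CPM in WT libraries. Lum, another of these markers, had 1 count over NGLY1-/- libraries and 2 over WT libraries. Of 3 tested blood cell markers, 2 were higher and 0 lower, and their list summed to 358 to 453 CPM in NGLY1-/- libraries and 212 to 268 CPM in WT libraries, nearly all of it Cd34, which mesenchymal cells also express (384 CPM in NGLY1-/- and 226 CPM in WT libraries). Ptprc, the gene of the pan-leukocyte antigen CD45, had 0 counts in each NGLY1-/- library and 3, 0 and 0 in WT libraries. Muscle markers summed to 3.95 to 4.24 CPM in NGLY1-/- libraries and 0.796 to 1.38 CPM in WT libraries. Of 2 tested muscle markers 1 was higher, Des (3.56 CPM in NGLY1-/- and 0.452 CPM in WT libraries). Des passed the low-count filter mainly through the NGLY1-/- libraries, so it is given without p. Its log2 fold change was 3.66 without WT replicate 1, against 2.9 with it. Acta1, the other tested muscle marker, did not pass (0.525 and 0.723 CPM, adjusted p = 0.478). Of 5 tested neural markers 2 were higher, Tubb3 (36.6 CPM in NGLY1-/- and 13.1 CPM in WT libraries) and Sox2 (2.11 and 0.27 CPM). The neural list summed to 263 to 355 CPM in NGLY1-/- libraries and 204 to 346 CPM in WT libraries. Most of that sum was Nes (277 and 244 CPM), which did not pass. Endothelial markers summed to 6.99 to 8.91 CPM in NGLY1-/- libraries and 5.93 to 7.99 CPM in WT libraries, and epithelial markers to 22.1 to 31.3 and 54.2 to 108 CPM. Of 4 tested epithelial markers 3 were lower. Krt8 passed the low-count filter only through the WT libraries and Cdh1 mainly through them, so this count is not read as a result. Most of the epithelial sum was Krt19 (24.8 CPM in NGLY1-/- and 74.1 CPM in WT libraries). Pluripotency and germ cell markers summed to 0.366 to 0.826 CPM in NGLY1-/- libraries and 0.549 to 1.23 CPM in WT libraries. The part of other cells in the Emb counts was not tested.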

How the data were processed

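The authors deposited raw counts, as whole numbers for 6 libraries, with an NCBI identifier and a symbol for each gene, per the file headers. Libraries were made with a stranded total RNA kit after Trizol extraction, per the labels' protocols. The submitters' processing notes list STAR 2.5.1b and mm10. How reads were assigned to genes, and with which strand setting, is not given in the sources used here. Gene positions are from RefSeq on GRCm38 (22507 genes placed), and exon lengths (found for 12495 tested genes) are GENCODE unions of exons.

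In R 4.3.3, edgeR 4.0.16 kept genes by filterByExpr, scaled libraries by TMM and tested genotype with a robust quasi-likelihood fit (two-sided, Benjamini-Hochberg over all tested genes, threshold 0.05). CPM use TMM-scaled totals. Counting intervals are exact at 95%, and like the floor of 3 counts they cover counting error only, because PCR copies were not told apart by molecular identifiers. The edgeR step was tested on simulated counts. Members and gene lists were chosen with earlier results of these data known. Named genes were the members, Ngly1, up to 5 genes of each list by p with others needed for their role, the 5 genes on either side of Emb, and the 5 profiles nearest to Emb, predicted genes left out. Some genes that this rule names are not reported here, although counts over lists include them. Alternatives were DESeq2 1.42.0 size factors and test, library totals, other low-count filters, limma-voom (limma 3.58.1), a replicate block and each library left out. Leaving out structural RNA genes, or both libraries numbered 3, was chosen after seeing the data.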

Additional observations from a re-analysis of the deposited data

How the results depend on the processing

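Bsg stayed lower and Slc16a1 higher, past the threshold, under all 15 alternatives. With 1 library left out the log2 fold change was -0.48 to -0.33 for Bsg, 0.60 to 0.76 for Slc16a1 and -0.28 to -0.01 for Slc16a3, which passed only without WT replicate 3. The count of lower members then ran from 1 to 2, of lower SLC16 relatives from 0 to 1, of higher basigin partners from 3 to 6 and of higher acid extrusion genes from 2 to 4. With no low-count filter 5 SLC16 relatives were higher, and with library totals only 0 carriers of the mitochondrial and sodium-coupled list were higher and 1 lower. That scaling put the median log2 fold change of all genes at -0.16, against -0.04. With both libraries numbered 3 left out, 1 SLC16 relative was lower. With structural RNA genes left out, Emb stood at 19.0 CPM in NGLY1-/- libraries, since fewer counts form the total. With the replicate block 4 acid extrusion genes were higher, against 2 without it. Same-numbered libraries correlated in their deviations from group means at 0.10, 0.01 and 0.21, so the numbers were not taken as pairs. Libraries of 27323577 or more counts limit what can be said of Slc16a9, Slc16a12 and Slc16a14.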
